A study of Mus musculus with 6 samples.

Results

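Granzymes are the serine proteases, and perforin the pore-forming protein, of the granules with which cytotoxic lymphocytes kill other cells. The genes described are Gzma, Gzmb, Gzmc, Gzmd, Gzme, Gzmf, Gzmg, Gzmk and Gzmm, which encode granzymes, and Prf1, which encodes perforin. Every probe set annotated with 1 of these symbols and no other was taken and kept apart, which gave 12 of the 45037 gene probe sets of the array for 10 genes, since Gzmd and Prf1 have 2 each. They were measured on 6 Affymetrix mouse arrays of marrow cells with the gate Lin- Sca1+ CD150+ CD48+, which the study takes for progenitors. The 3 dKO arrays hold cells of mice with the genotype MxCre c-myc f2 N-myc f2, each a pool of 3 mice. The 3 control arrays hold cells of c-myc f2 N-myc f2 mice, which carry the same floxed alleles of c-Myc and N-Myc without MxCre, each a pool of 2 mice. Both groups were 8 weeks old, on a mixed background, and received 2 daily doses of pI-pC, an inducer of interferon, with the last dose 3 days before the cells were taken. Interferon switches on the Mx promoter that drives Cre, and it does so in many tissues and not in blood cells alone. The transgene was present in the dKO mice only, so its own effect and that of losing c-Myc and N-Myc cannot be told apart.

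A cytotoxic cell stores granzymes and perforin on the proteoglycan serglycin in acidic granules, releases them at the contact with its target, and perforin then lets the granzymes enter the target cell. Inside, granzyme B cleaves after aspartate and activates caspases and Bid, whereas granzymes A and K cut after basic residues and granzyme M after methionine or leucine. Resting natural killer cells of mice are known to hold granzyme A protein and to carry granzyme B and perforin mostly as untranslated messenger RNA, and activated T cells switch several granzyme genes on.

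The genes lie on 3 chromosomes: Gzmb to Gzmg stand in one row on chromosome 14, with Gzmn among them, Gzma and Gzmk on chromosome 13, and Gzmm and Prf1 on chromosome 10. The start regions of 4 genes are shown, from RefSeq on GRCm38.p6, each from 250 bases before to 50 bases after the annotated start of transcription and written 5′ to 3′ on the gene's own strand. Gzmb, Gzmc and Prf1 are the genes with a changed probe set, and Gzme is a gene of the same row that did not pass the test. Capitals mark every match, on either strand, to the E-box CACGTG that Myc binds, the loose RUNX pattern TGNGGT or the AP-1 site TGANTCA. They also mark every match to the STAT site TTCNNNGAA or the T-box core GTGTGA. N stands for any base, so TGNGGT also takes in TGAGGT and TGGGGT.
Gzmb, chr14:56262285-56262584, minus strand: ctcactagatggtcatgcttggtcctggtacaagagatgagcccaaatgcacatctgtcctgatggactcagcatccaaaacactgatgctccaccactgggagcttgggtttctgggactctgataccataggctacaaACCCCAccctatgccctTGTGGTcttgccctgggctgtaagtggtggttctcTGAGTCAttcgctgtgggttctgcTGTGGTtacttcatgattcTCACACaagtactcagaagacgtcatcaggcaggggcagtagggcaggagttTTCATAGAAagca
Gzmc, chr14:56234608-56234907, minus strand: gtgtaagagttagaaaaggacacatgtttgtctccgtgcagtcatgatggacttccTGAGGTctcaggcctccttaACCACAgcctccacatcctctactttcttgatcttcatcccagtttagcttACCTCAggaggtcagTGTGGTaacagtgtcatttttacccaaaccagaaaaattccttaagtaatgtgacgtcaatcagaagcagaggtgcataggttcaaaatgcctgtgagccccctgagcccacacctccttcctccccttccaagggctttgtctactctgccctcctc
Gzme, chr14:56120576-56120875, minus strand: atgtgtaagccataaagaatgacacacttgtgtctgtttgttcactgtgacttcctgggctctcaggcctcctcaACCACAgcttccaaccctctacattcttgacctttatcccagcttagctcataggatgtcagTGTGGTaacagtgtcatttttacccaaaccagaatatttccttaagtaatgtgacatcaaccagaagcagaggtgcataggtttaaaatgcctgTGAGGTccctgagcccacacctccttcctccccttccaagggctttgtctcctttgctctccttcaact
Prf1, chr10:61297586-61297885, plus strand: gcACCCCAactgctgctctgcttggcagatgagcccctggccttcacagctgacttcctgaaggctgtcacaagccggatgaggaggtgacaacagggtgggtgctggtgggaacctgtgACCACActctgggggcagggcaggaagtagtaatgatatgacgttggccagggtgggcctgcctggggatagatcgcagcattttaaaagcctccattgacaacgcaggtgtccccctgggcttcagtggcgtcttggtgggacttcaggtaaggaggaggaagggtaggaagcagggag
The Gzmb window held 3 matches to TGNGGT, at -110 to -105, -93 to -88 and -34 to -29 from the start. The first reads TGGGGT and the others TGTGGT. The window also held an AP-1 site at -58 to -52, a T-box core at -15 to -10 and a STAT site at 38 to 46. The windows of Gzmc, Gzme and Prf1 held matches to TGNGGT only, some of which read TGAGGT or TGGGGT. None of these 4 windows held the E-box letters, which says nothing about Myc binding outside them or at other letters. Over the 11 windows of the 10 genes, the E-box letters were found only in 1 of Gzmm, at -9 to -4. Among 32851 RefSeq windows of the same length, the E-box was found in 7.15%, TGNGGT in 45.8% and the AP-1 site in 7.81%. The STAT site was found in 8.3% and the T-box core in 14.5%. A match to TGNGGT is thus common in any such window. These matches are letters in a window and not measured binding. In a global alignment, 86% of the 300 bases of the Gzmc window were identical to the aligned base of the Gzme window. It shared 85.3% with Gzmd, 82.3% with Gzmg and 81.3% with Gzmf. The Gzmb window shared 60.3% of its bases with that of Prf1, which is no granzyme, and 55.3% to 59.3% with those of Gzmc to Gzmg.

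Values are log2 RMA values as deposited, so a difference of 1 is a factor of 2. The median of an array was 5.90 to 5.94, and its probe sets ran between 1.53 and 13.9. Myc stood at 7.99, 7.87 and 7.44 in dKO pools 1 to 3, against 10.79, 10.95 and 10.47 in control pools 1 to 3. Of 3 Mycn probe sets, 1 was lower in every dKO pool, at 4.42, 3.28 and 4.47 against 9.57, 8.93 and 9.48. The Mycn probe set with the highest mean differed by -0.83 with overlapping groups (limma, adjusted p = 0.184). The third Mycn probe set differed by 0.34, with every dKO pool above every control pool (adjusted p = 0.427). The tissue label of control 1 names LT-HSCs while its title and gate match the other arrays. Both pools numbered 1 had a high value for Xist, an RNA of female cells, with 10.50 in dKO 1 and 9.10 in control 1, while the other 4 pools lay between 5.03 and 5.86. Without both pools numbered 1, the same 3 granzyme and perforin probe sets passed the test. Of the gate's own genes, Slamf1 (CD150) differed by 0.78 (limma, adjusted p = 0.327) and Cd48 by 0.20 (adjusted p = 0.697), and neither passed it. Kit and Ptprc (CD45), which are not named in the gate, differed by -0.29 and -0.01 and did not pass.

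Of the 12 granzyme and perforin probe sets, 3 were higher in dKO cells and 0 lower at a limma adjusted p of 0.05: those of Gzmb, Gzmc and 1 of the 2 for Prf1. Across all 45037 probe sets the same test called 1.83% higher and 1.78% lower in dKO cells. The 3 dKO pools stood above the 3 control pools in 9 of the 12 and the groups overlapped in the other 3, against 10.7% of all probe sets with every dKO pool above every control pool. A test at an unadjusted p under 0.05 took in 4 of the 12 probe sets, the fourth being Gzma, and 15.9% of all probe sets. In a sorted population, more cells of a type and more RNA per cell cannot be told apart.

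**Figure D1:**
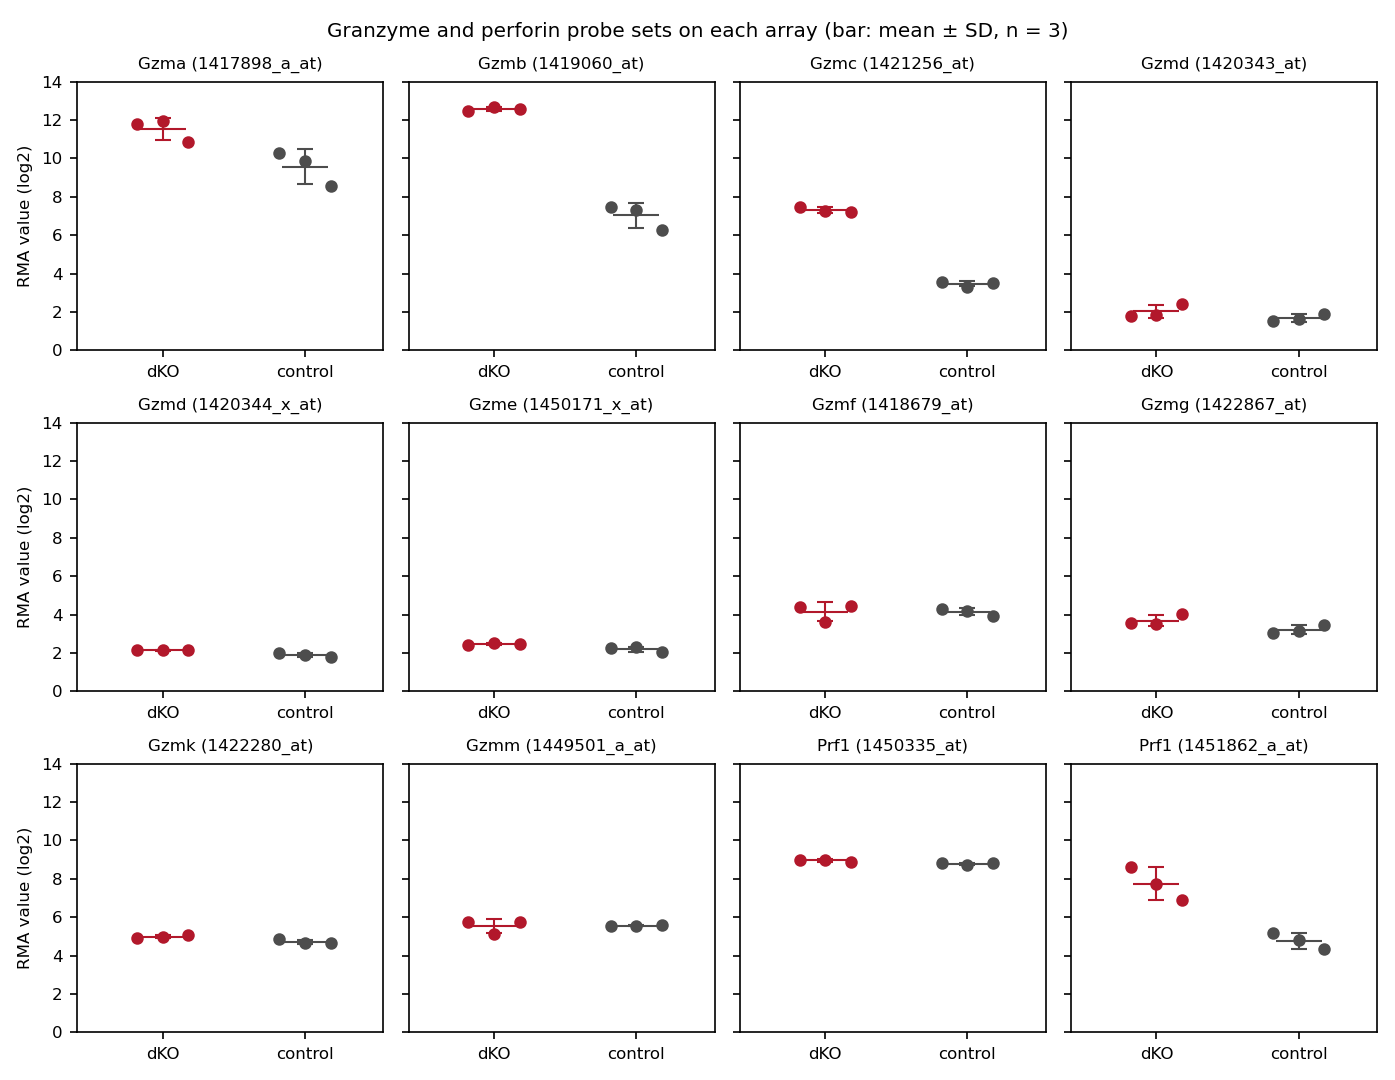
RMA values (log2, y axis) of the 12 granzyme and perforin probe sets in each of the 3 dKO pools (left in each panel) and the 3 control pools (right), with a bar at each group's mean ± SD. Gzmb, Gzmc and the Prf1 _a_at probe set show gaps of 4.97, 3.67 and 1.73 between the lowest dKO pool and the highest control pool, and Gzma a gap of 0.58.

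Gzmb showed the largest difference of the 12 probe sets. It stood at 12.46, 12.66 and 12.57 in dKO pools 1 to 3, against 7.49, 7.32 and 6.28 in control pools 1 to 3. All dKO pools were high and close together, within 0.204 of each other, while the control pools spanned 1.21 and control 3 was the lowest. The means were 12.57 ± 0.10 in dKO and 7.03 ± 0.66 in control cells (SD, n = 3 each), a log2 difference of 5.54 ± 0.30 (SE, 95% interval 4.84 to 6.23) or 46.4-fold (limma, adjusted p = 0.000171). Granzyme B is the protease most closely tied to rapid death of the target cell. The difference lay between 5.16 and 5.77 when each pool was left out in turn and passed the test each time.

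Gzmc, a granzyme gene known from activated cytotoxic T cells and natural killer cells of mice, rose as well. Its values were 7.48, 7.24 and 7.22 in dKO pools, against 3.56, 3.31 and 3.53 in control pools. The groups were far apart and each was tight, with a range of 0.254 in dKO and 0.242 in control cells. The means were 7.31 ± 0.14 in dKO and 3.47 ± 0.13 in control cells (SD, n = 3 each), a log2 difference of 3.85 ± 0.17 (SE, 95% interval 3.45 to 4.24) or 14.4-fold (limma, adjusted p = 9.01e-05). It passed the test without any single pool, at 3.77 to 3.89. RMA understates differences of low values such as those of the control pools, so the fold is the RMA estimate and not an exact size.

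The other granzyme genes of the chromosome 14 row among the 10, Gzmd to Gzmg, did not pass the test. These genes encode close copies of granzyme C. Gzmg, the nearest to a call, had 3.54, 3.49 and 4.02 in dKO pools, against 3.05, 3.12 and 3.48 in control pools. Its dKO pools were all above the control pools, with a gap of 0.0086 between the lowest dKO pool and the highest control pool, and the log2 difference was 0.47 ± 0.21 (SE, limma adjusted p = 0.338). Gzme had 2.43, 2.50 and 2.49 in dKO pools, against 2.24, 2.29 and 2.05 in control pools, a difference of 0.28 ± 0.16 (SE, adjusted p = 0.475). The dKO pools of Gzme were above the control pools by a small margin. The Gzmd _at probe set had 1.82, 1.87 and 2.40 in dKO pools, against 1.53, 1.64 and 1.91 in control pools, and the groups overlapped (difference 0.33, adjusted p = 0.529). The Gzmd _x_at probe set had 2.15, 2.17 and 2.13 in dKO pools, against 2.01, 1.92 and 1.79 in control pools, with no overlap (difference 0.24, adjusted p = 0.55). The letter x in that name and in the Gzme name marks probes that may also bind transcripts of similar genes. Gzmf had 4.39, 3.60 and 4.47 in dKO pools, against 4.31, 4.18 and 3.94 in control pools, and showed no separation (difference 0.01 ± 0.26, adjusted p = 0.993). A further probe set, annotated to both Gzme and Gzmd and so not counted among the 12, differed by 0.24 (adjusted p = 0.579). RMA values at the low end of the scale understate differences, and probe sequences were not used here, so binding of Gzmc transcripts to the probes of its copies, or the reverse, was not tested.

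Gzma encodes a tryptase stored in natural killer cells. Its values were 11.79, 11.93 and 10.87 in dKO pools, against 10.29, 9.86 and 8.55 in control pools. Every dKO pool was above every control pool, but both groups spread widely, by 1.07 in dKO and 1.73 in control cells, with pool 3 lowest in each. The means were 11.53 ± 0.58 in dKO and 9.57 ± 0.90 in control cells (SD, n = 3 each), a log2 difference of 1.96 ± 0.45 (SE, 95% interval 0.94 to 2.99) or 3.90-fold, which missed the threshold over all probe sets (limma, adjusted p = 0.0538). It passed with 1 probe set per gene (adjusted p = 0.0304) and without control 1 (adjusted p = 0.0428), and reached 0.156 without dKO 1. Gzmk, which encodes the other tryptase and lies near Gzma on chromosome 13, had 4.94, 4.95 and 5.07 in dKO pools, against 4.84, 4.65 and 4.65 in control pools. The dKO pools of Gzmk were above the control pools by less than Gzma's, and the difference of 0.27 ± 0.16 did not pass the test (SE, adjusted p = 0.488). Gzmm, which encodes the granzyme that cleaves after methionine or leucine, had 5.74, 5.11 and 5.76 in dKO pools, against 5.56, 5.53 and 5.58 in control pools. Its groups overlapped, with dKO 2 the lowest of all pools, and the difference was -0.02 ± 0.21 (SE, adjusted p = 0.98).

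Perforin, which forms the pore, was read by 2 probe sets that gave different answers. The _a_at probe set had 8.63, 7.72 and 6.89 in dKO pools, against 5.17, 4.84 and 4.32 in control pools. All dKO pools were above all control pools, and the dKO pools spanned 1.73, with dKO 1 the highest. The means were 7.75 ± 0.87 in dKO and 4.78 ± 0.42 in control cells (SD, n = 3 each), a log2 difference of 2.97 ± 0.41 (SE, 95% interval 2.04 to 3.91) or 7.85-fold (limma, adjusted p = 0.00699). The other, _at, had 8.98, 9.002 and 8.87 in dKO pools, against 8.82, 8.72 and 8.79 in control pools. Here the groups were separated by only 0.052, and the difference was 0.17 ± 0.16 (SE, 95% interval -0.19 to 0.54, adjusted p = 0.69). The upper end of the second interval lies below the lower end of the first. Their mean per array differed by 1.57 (adjusted p = 0.00472). The stretch of the Prf1 transcript that each probe set covers was not used here.

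**Figure D2:**
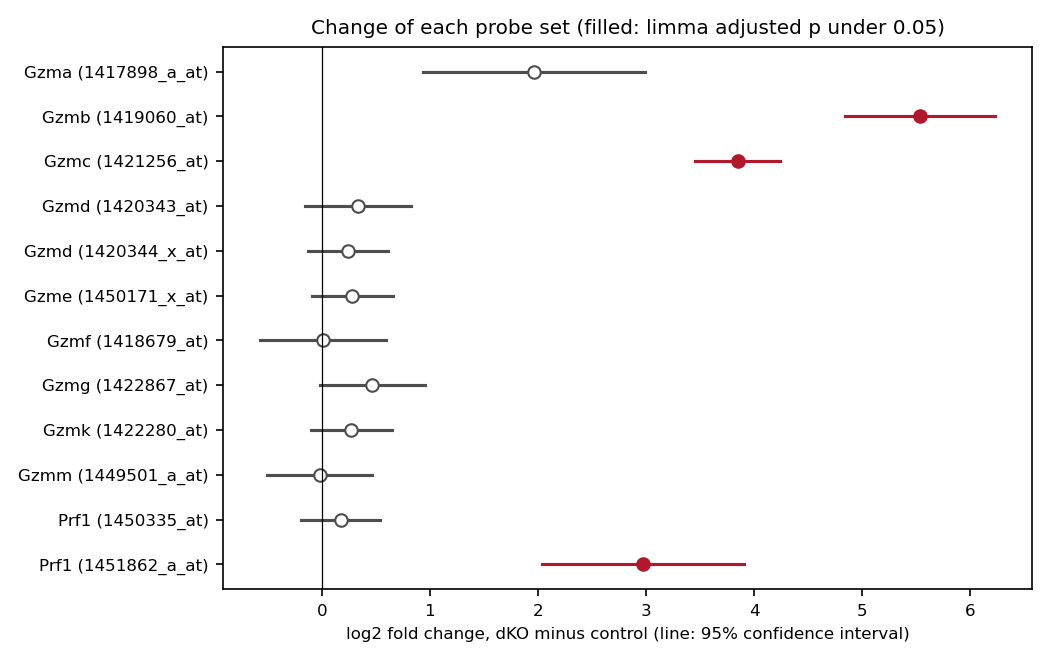
Log2 difference, dKO minus control, for each of the 12 probe sets (points), with 95% intervals of the limma fit (bars) and a line at 0. Filled points passed an adjusted p of 0.05: Gzmb at 5.54, Gzmc at 3.85 and the Prf1 _a_at probe set at 2.97.

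The granzyme genes of chromosome 14 belong to a longer row of serine protease genes that starts with the mast cell proteases. In the order of the RefSeq annotation, the row runs Cma1, Cma2, Mcpt1, Mcpt2, Mcpt9, Mcpt4, Mcpt8, Ctsg, Gzme, Gzmd, Gzmg, Gzmn, Gzmf, Gzmc and Gzmb. Of these 15 genes 13 had a probe set of their own. Of the 13, 4 were higher in dKO cells, Cma1, Mcpt8, Gzmc and Gzmb, and 0 were lower. Gzmc and Gzmb are members already counted above. Over all 18193 genes, each by its probe set with the highest mean, 2.45% were higher and 2.03% lower. The changed genes were not one block, since they stand at the ends and in the middle of the row. Cma1, a mast cell chymase, had 8.33, 9.13 and 7.68 in dKO pools, against 6.04, 5.82 and 5.70 in control pools, and rose by 2.53 ± 0.33 (SE, limma adjusted p = 0.0058). Mcpt8, a protease of basophils, had 8.59, 9.99 and 9.39 in dKO pools, against 6.61, 7.27 and 6.84 in control pools, and rose by 2.42 ± 0.34 (SE, adjusted p = 0.0078). Ctsg, the cathepsin G of neutrophil precursors and the gene next to the granzymes, had a difference of -1.71 ± 0.55 that did not pass (SE, adjusted p = 0.157). Gzmn differed by 0.17 (adjusted p = 0.753).

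**Figure D3:**
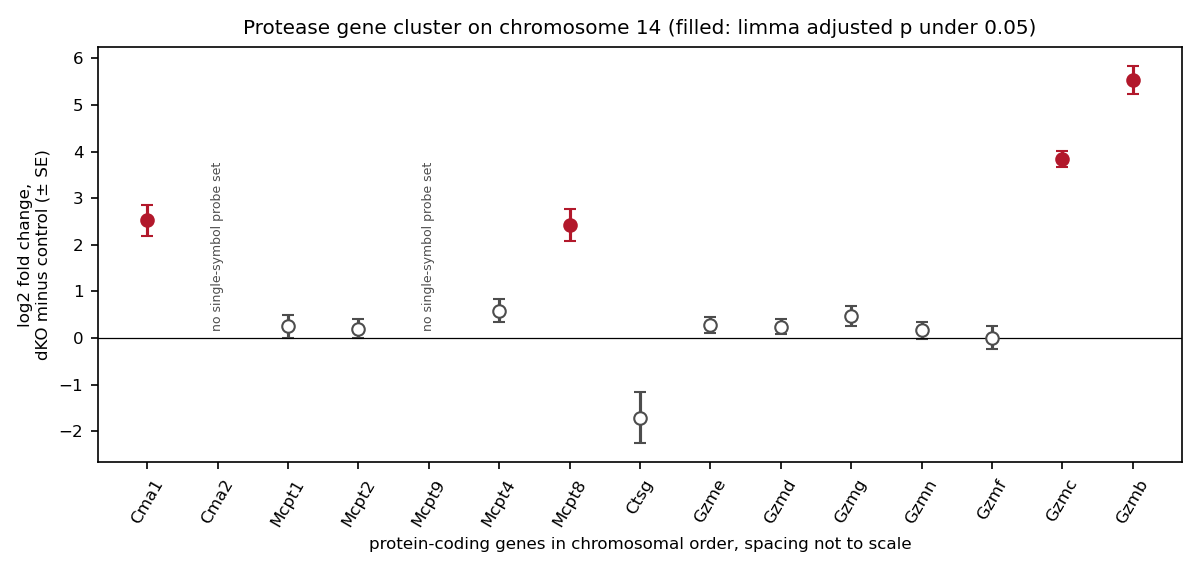
Log2 difference, dKO minus control (y axis), with its SE (bars), for the 13 protease genes with a probe set of their own in the chromosome 14 row of 15, in the order of the annotation and not to scale along the chromosome. Filled points passed an adjusted p of 0.05, which were Cma1 at 2.53, Mcpt8 at 2.42, Gzmc at 3.85 and Gzmb at 5.54.

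The 5 genes whose profile over the 6 arrays was closest to that of Gzmb were Trgv4, Thbs1, Ppbp, Slc6a4 and Hbb-b2. Closeness was the root mean square of the log2 differences after each profile was centred on its own mean, and it was 0.144 for Trgv4, a V segment of the gamma T cell receptor locus, which was higher in dKO cells by 5.39. Thbs1 (thrombospondin), Ppbp (a platelet chemokine) and Slc6a4 (the serotonin transporter) followed at 0.361, 0.545 and 0.583, and Hbb-b2, a beta globin gene, at 0.926. All 5 were found by this search over arrays of 2 groups, so a gene with a large difference of the same size ranks high whatever else it does. It took each gene by its closest probe set. Over alternative settings, which varied the probe set choice, differences were 3.76 to 5.63 for Trgv4, 3.99 to 4.54 for Thbs1 and 4.54 to 5.38 for Ppbp. They were 4.73 to 5.13 for Slc6a4 and 2.78 to 3.90 for Hbb-b2.

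Other genes of the granzyme pathway were counted by the probe set with the highest mean of each gene. Over 18193 genes counted this way, 2.45% were higher and 2.03% lower in dKO cells, and the median log2 difference was 0.05. Counted so, Gzmb and Gzmc were the 2 of 10 member genes called higher, since the chosen Prf1 probe set is the one that did not pass.

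Of 15 measured genes for maturation of granzymes and granule cargo, 3 were higher and 1 lower in dKO cells, with a median log2 difference of 0.26. Nkg7, a membrane protein of cytotoxic granules, had 10.94, 11.40 and 11.23 in dKO pools, against 9.33, 9.27 and 9.16 in control pools, and rose by 1.94 ± 0.18 (SE, limma adjusted p = 0.0014). Ctsw, a cathepsin of natural killer cells and cytotoxic T cells, rose by 1.60 ± 0.30 (adjusted p = 0.0253). Fasl, the death ligand that cytotoxic cells also carry, rose by 2.16 ± 0.46 (adjusted p = 0.0399). When pools were left out singly, the call for Fasl held without dKO 3 only and that for Ctsw without dKO 3 or control 3 only, with adjusted p up to 0.137 and 0.104. The count of higher genes was then 1 without control 1, control 2, dKO 1 or dKO 2. Ctsh, a cathepsin that can activate granzyme B, had 5.83, 7.38 and 7.05 in dKO pools, against 9.06, 9.96 and 9.22 in control pools, and fell by 2.66 ± 0.40 (SE, adjusted p = 0.0104). Ctsc, which removes the propeptide of granzymes, differed by -0.18 (adjusted p = 0.834), and Srgn, which encodes serglycin, by 0.53 (adjusted p = 0.144).

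Of 14 measured genes for transport and release of granules, 1 was higher and 0 lower in dKO cells, with a median log2 difference of 0.54. This was Snap23, a membrane fusion protein, with 12.41, 12.19 and 11.82 in dKO pools, against 11.02, 10.95 and 11.21 in control pools, and a rise of 1.08 ± 0.20 (SE, limma adjusted p = 0.0246). Of its 3 probe sets, 2 passed. With single pools left out, the call held only without dKO 3, and adjusted p reached 0.107 without control 2. Vamp8, another fusion protein, differed by 0.69 (adjusted p = 0.0729), Stx11, a syntaxin that killing by lymphocytes needs, by 0.96 (adjusted p = 0.127), and Sytl2, which tethers granules, by 1.95 (adjusted p = 0.115). In 8 of the 14 genes every dKO pool was above every control pool, against 12.7% of the 18193 genes.

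Of 13 measured inhibitors and targets of granzymes, 2 were higher and 2 lower in dKO cells, with a median log2 difference of 0.09. That median turned to -0.27 over probe sets above the median mean and to -0.098 without control 3, and it lay just below 0 without dKO 1 or dKO 2. Both higher genes encode serpins. Serpinb9, the inhibitor of granzyme B, had 7.79, 7.56 and 7.05 in dKO pools, against 6.48, 5.40 and 5.81 in control pools, and rose by 1.57 ± 0.31 (SE, limma adjusted p = 0.0295). A second Serpinb9 probe set differed by 0.91, with overlapping groups, and did not pass (adjusted p = 0.141). Its related gene Serpinb9b had 7.06, 6.12 and 5.77 in dKO pools, against 4.60, 4.21 and 4.03 in control pools, and rose by 2.04 ± 0.33 (SE, adjusted p = 0.0135). Both lower genes encode nuclear DNA repair proteins that granzymes cleave, Parp1, which fell by 0.84 ± 0.16 (adjusted p = 0.0299), and Apex1, which fell by 0.96 ± 0.19 (adjusted p = 0.0307). Of 4 Parp1 probe sets 2 were lower, and of 3 Apex1 probe sets 3. With single pools left out, the calls for Parp1 and Apex1 held only without dKO 3 (adjusted p up to 0.123 and 0.116) and that for Serpinb9 only without dKO 3 or control 1 (up to 0.106). The call for Serpinb9b was lost without control 2 or control 3 (up to 0.0637).

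A list of cytokine signal genes and transcription factors was made as possible drivers of granzyme genes in lymphocytes. Of its 21 measured genes, 6 were higher and 1 lower in dKO cells, with a median log2 difference of 0.65. Whether any of them acts on granzyme genes in these cells was not tested. The interleukin 2 receptor alpha chain Il2ra had 8.87, 8.26 and 7.63 in dKO pools, against 5.89, 5.21 and 5.84 in control pools, and rose by 2.61 ± 0.33 (SE, limma adjusted p = 0.0045). A second Il2ra probe set differed by 1.15 and did not pass (adjusted p = 0.312). The chain shared with the interleukin 15 receptor, Il2rb, rose by 1.80, and the interleukin 18 receptor gene Il18r1 by 1.60. Among transcription factors, Bhlhe40 had 8.92, 9.31 and 8.42 in dKO pools, against 6.54, 6.79 and 5.99 in control pools, and rose by 2.44 ± 0.28 (SE, adjusted p = 0.0034). Id2, which natural killer cells need to mature, had 9.38, 9.31 and 8.82 in dKO pools, against 7.34, 7.14 and 6.52 in control pools, and rose by 2.17 ± 0.26 (SE, adjusted p = 0.0038). Eomes, the T-box factor of natural killer cells, had 8.89, 8.58 and 7.13 in dKO pools, against 6.06, 6.27 and 5.20 in control pools, and rose by 2.36 ± 0.46 (SE, adjusted p = 0.0295). Tbx21, the other T-box factor, differed by 0.81 (adjusted p = 0.227) and Prdm1 by 0.65 (adjusted p = 0.168). Irf4, a factor of activated lymphocytes, had 5.03, 5.52 and 5.57 in dKO pools, against 6.65, 7.15 and 6.89 in control pools, and fell by 1.52 ± 0.22 (SE, adjusted p = 0.0081). A second Irf4 probe set differed by -1.001, with overlapping groups, and did not pass (adjusted p = 0.129). With single pools left out, Il2ra, Bhlhe40, Id2 and Irf4 passed each time, Il2rb was lost without control 3, Eomes passed only without dKO 3 and Il18r1 only without control 1. Without control 3, 3 of the 21 genes were called higher.

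**Figure D4:**
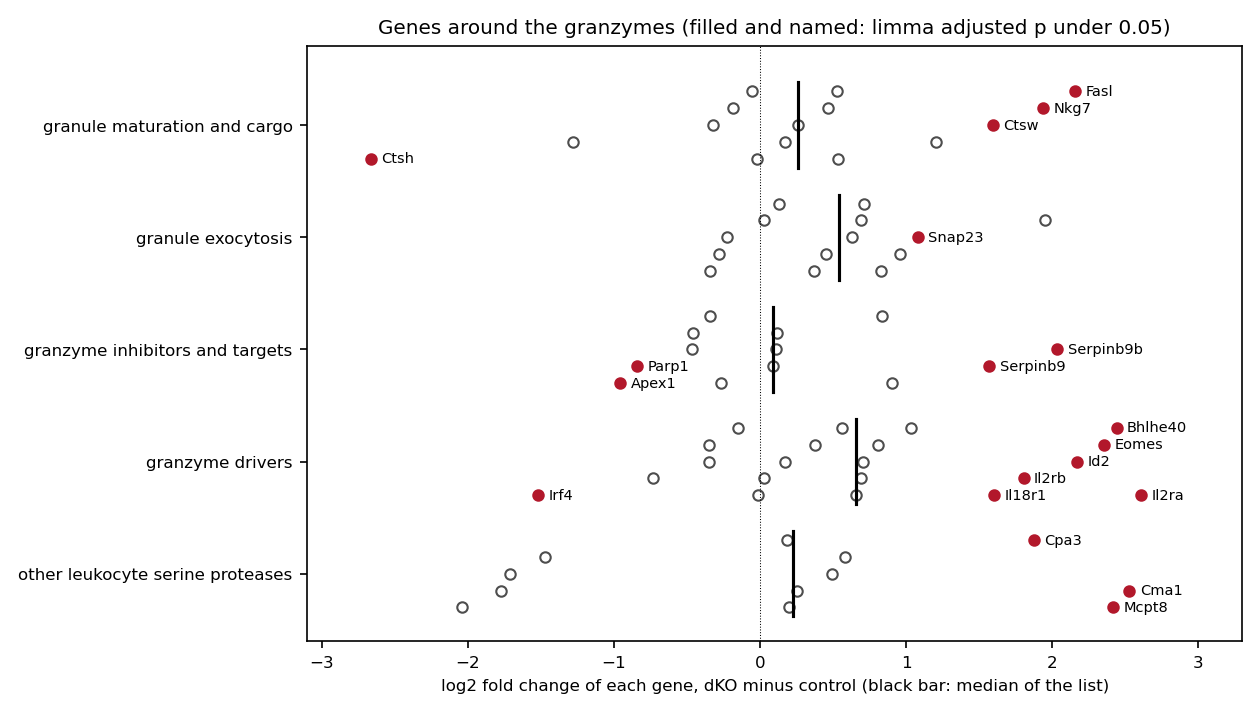
Log2 difference, dKO minus control (x axis), of each measured gene in 5 lists of related genes, with called genes as filled, named points and a bar at each list's median. The list named granzyme drivers holds the cytokine signal genes and transcription factors, of which 6 of 21 were higher and 1 lower in dKO cells. Its name is a label, and an action on granzyme genes was not tested.

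Granzymes and perforin are made by several cell types, and markers of some of them moved with the groups. The cells were sorted as Lin-, a gate meant to remove mature cells of marked lineages. Which lineage markers it used is not given in the sources used here. Markers were counted by the probe set with the highest mean of each gene. Of 18193 genes counted this way, 2.45% were higher and 2.03% lower in dKO cells. Of 13 measured natural killer cell markers, 5 were higher and 0 lower. The mean over these markers was 7.35 to 8.32 in dKO pools and 6.46 to 6.83 in control pools. Ncr1, a receptor of natural killer cells, had 7.28, 7.77 and 6.49 in dKO pools, against 5.06, 5.80 and 4.93 in control pools, and rose by 1.91 ± 0.35 (SE, limma adjusted p = 0.0231). Klrk1, an activating receptor, rose by 1.76 ± 0.28 (adjusted p = 0.0121). In 2 of the 13 the difference was below 0, and neither passed. These were Tyrobp at -0.39, with every dKO pool below every control pool (adjusted p = 0.361), and Fcgr3 at -0.05. The count of higher markers was 2 without control 2, dKO 1 or dKO 2 and 3 without control 1 or control 3. It was 7 without dKO 3 and 0 without both pools numbered 1. The order of the 6 pools by the mean of the natural killer cell markers had dKO 2 highest and control 3 lowest. It was also the order of the pools' values for Gzma and for the Gzmd _x_at probe set, whose dKO pools spanned only 0.0378. The share of all probe sets with this order was not counted, and a link was not tested. The control pools stood in that order for Gzmb, the Prf1 _a_at probe set and the mean of the T cell markers as well, and the dKO pools did not.

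Of 14 measured T cell markers, 3 were higher and 0 lower in dKO cells, against 2.45% and 2.03% of the 18193 genes. Their mean was 6.50 to 6.85 in dKO pools and 6.04 to 6.40 in control pools. Cd3d rose by 1.03 ± 0.19 (SE, limma adjusted p = 0.0246) and Thy1 by 1.35, while Cd3e differed by 0.97 (adjusted p = 0.216). In 6 of the 14 the difference was below 0: Cd247 at -0.45, Cd8a at -0.36, Cd28 at -0.31, Cd4 at -0.14, Themis at -0.04 and Cd6 at -0.0062, and none of these passed. The count was 0 without control 2, control 3 or dKO 2 and 1 without control 1, dKO 1 or dKO 3. Of 12 mast cell and basophil markers, 5 were higher and 0 lower, Cma1, Mcpt8 and Cpa3 among them, with a mean of 7.13 to 7.90 in dKO pools and 6.32 to 6.40 in control pools. Leaving out control 2 brought that count to 2, and leaving out dKO 1, control 1 or control 3 brought it to 3. In 11 of the 12 the difference was above 0, and in 1, Kit at -0.29, it was below 0 and did not pass. Of 12 measured serine proteases of other leukocytes and their partners, 3 were higher, the same Cma1, Mcpt8 and Cpa3, and 0 lower, with a median log2 difference of 0.23. That median turned to -1.47 over the 7 genes left by either filter on dim probe sets. Elane, the neutrophil elastase, differed by -1.47 (adjusted p = 0.251) and Prtn3 by -1.78 (adjusted p = 0.087).

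Plasmacytoid dendritic cells also make granzyme B. Of their 10 measured markers, 0 were higher and 2 lower in dKO cells, against 2.45% and 2.03% of the 18193 genes. The means were 6.93 to 7.53 in dKO pools and 7.70 to 7.85 in control pools. Irf8 fell by 2.33 (limma, adjusted p = 0.0057) and Bst2 by 1.16 (adjusted p = 0.0132). Siglech, the defining surface marker, differed by -0.95 (adjusted p = 0.093). In 2 of the 10 the difference was above 0, Ccr9 at 0.70 (adjusted p = 0.215) and Tlr7 at 0.16, and neither passed. Of 13 granulocyte and monocyte markers, 0 were higher and 2 lower, with means of 6.05 to 7.22 in dKO pools and 7.81 to 8.19 in control pools. Those 2 were Csf1r, which fell by 2.44 (adjusted p = 0.0093) and in 2 of its 3 probe sets passed, and Lyz2, which fell by 1.62 (adjusted p = 0.0114). In all 13 the difference was below 0, with a median log2 difference of -1.47. That median lay between -1.79 and -0.91 with single pools left out. The plasmacytoid count was 1 without dKO 1, control 2 or control 3, and the granulocyte and monocyte count was 1 without control 2 or control 3. The part of any of these cell types in the granzyme and perforin values was not tested.

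**Figure D5:**
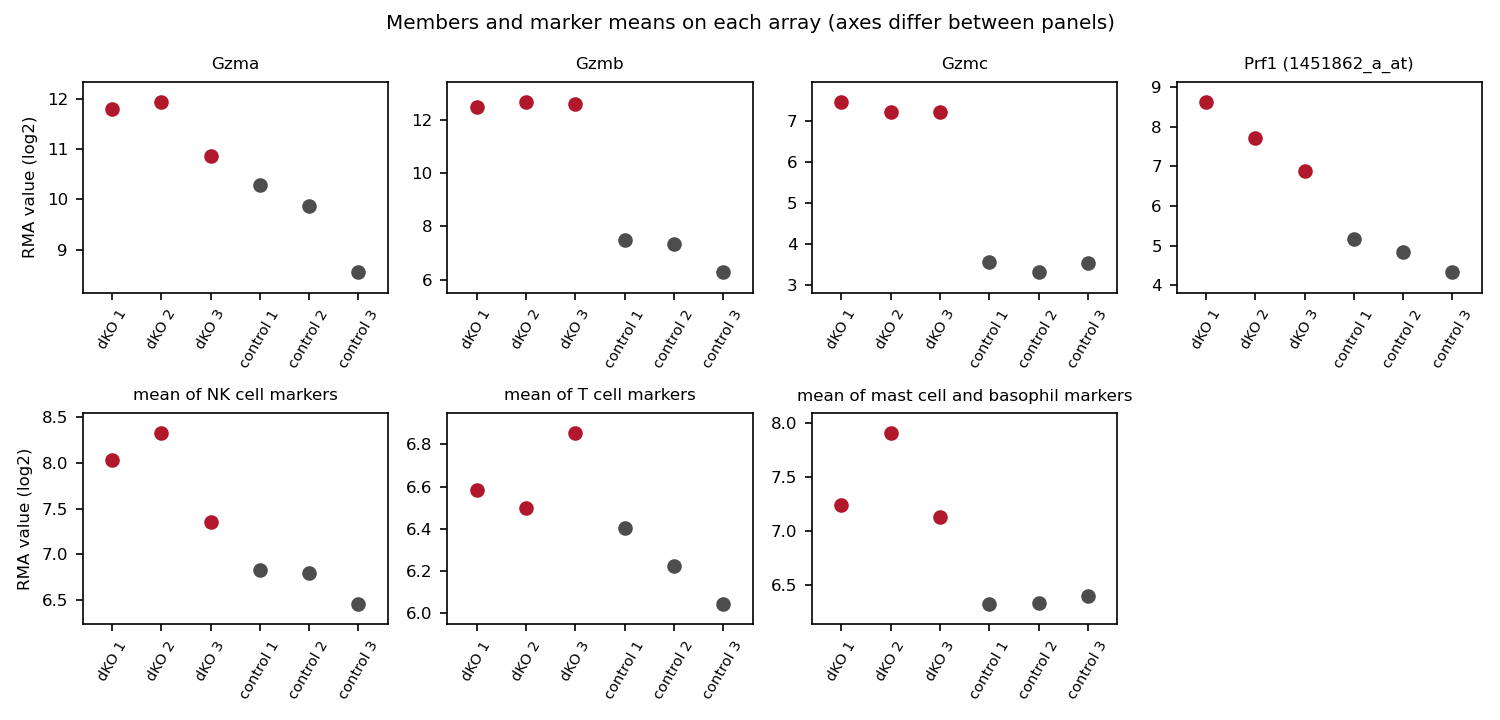
RMA value (log2, y axis, scaled for each panel) in the 3 dKO pools (left) and the 3 control pools (right) for Gzma, Gzmb, Gzmc and the Prf1 _a_at probe set, and the mean over the markers of natural killer cells, T cells, and mast cells and basophils. Each of the 3 marker means was higher in every dKO pool than in any control pool. The means of the plasmacytoid and of the granulocyte and monocyte markers, not drawn, were lower in every dKO pool than in any control pool. Gzma and the natural killer mean put the pools in the same order, as did the Gzmd _x_at probe set, and a link was not tested.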

How the data were processed

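The deposited log2 values were used as the authors made them, with RMA, per the submitters' processing notes; its version is not given in the sources used here. RMA corrects background, normalizes quantiles and shrinks dim probe sets. RNA was amplified in 2 rounds per the labels' protocols. Control probe sets (64 of 45101) were left out. Gene symbols came from the platform annotation, which gives 34945 probe sets 1 symbol, 932 several and 9160 none.

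Groups came from the titles. limma 3.58.1 in R 4.3.3 (lmFit, eBayes, group as the only term, two-sided) compared dKO with control over all 45037 probe sets with Benjamini-Hochberg adjustment and a threshold of 0.05. Each array is a pool of mice, so errors describe the spread between pools, and 3 arrays a group limit the precision. For lists, each gene was represented by its probe set with the highest mean. Named from each list were up to 4 genes with the smallest p, a few defining genes of the lists, and the 5 profiles closest to Gzmb. Cma1, Mcpt8, Ctsg and Gzmn are named by position. The smallest p values take in Vamp8, Sytl2, Stx11 and Prtn3, while Il2rb and Il18r1 were picked after their values were seen. Natural killer, T cell, plasmacytoid and mast cell markers with the rarer sign in their list were named for that sign. The members, lists and rules were chosen with earlier results of these data known. Promoter windows were searched and aligned over their full length with Biopython 1.88 in Python 3.11.15, from RefSeq GRCm38.p6; figures used matplotlib 3.10.9. The fit was tested on simulated data. Alternatives covered filters, probe set choice, scaling, variance model, array weights, a replicate block, thresholds and left-out arrays.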

Additional observations from a re-analysis of the deposited data

How the results depend on the processing

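The calls for Gzmb (5.16 to 5.82, limma adjusted p up to 0.0031), Gzmc (3.77 to 3.91, up to 0.00196) and the Prf1 _a_at probe set (2.53 to 3.40, up to 0.0362) held under every alternative that tested them; with 1 probe set per gene this one of Prf1 was not in the fit. Gzma passed in 10 of 20, among them the threshold of 0.1, which its unchanged adjusted p of 0.0538 meets. At 0.05 it passed, for example, with a dim filter at log2 5 (adjusted p = 0.0334) or the trend and robust option (0.0222). It also passed with array weights (0.0267) or a replicate block (0.00873), and not after renewed quantile normalization (0.0588). The number of member probe sets called higher was 3 or 4, and 0 were lower.

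Counts of called genes moved more. With 1 probe set per gene, granule exocytosis had 2 higher, and 519 genes in all were lower. Array weights gave 2 for exocytosis, 1 lower among other leukocyte proteases, 4 lower plasmacytoid markers, 1238 higher and 1271 lower probe sets, and Ptprc at 0.13. With only probe sets above the median mean, exocytosis had 2 higher, inhibitors 1 higher and other proteases 1 lower. Averaging the probe sets of a gene gave 4 for exocytosis, 1 lower protease, 4 lower plasmacytoid markers and Ptprc at 0.20. Renewed quantile normalization gave 2 for exocytosis, Gzmf at -0.040 and Ptprc at 0.0046. A threshold of 0.01 left natural killer, T cell, exocytosis and inhibitor lists at 0 higher, maturation at 1 higher and 0 lower, inhibitors at 0 lower, drivers at 3 and mast cells at 2 higher, plasmacytoid and granulocyte markers at 1 lower each, and 295 higher and 220 lower probe sets. A threshold of 0.1 gave 2 for exocytosis, 1 lower protease, 4 lower plasmacytoid markers and 1440 lower probe sets. The trend and robust option gave 2 for exocytosis and 5 higher for maturation, and leaving out probe sets ending in _x_at or _s_at gave 1 lower inhibitor or target. Without both arrays numbered 1, Gzmf stood at -0.025, natural killer and exocytosis lists at 0 higher, T cells at 1, maturation at 1, mast cells at 3, inhibitors at 0 lower, plasmacytoid markers at 1 lower, with 293 higher and 272 lower probe sets; Gzma reached adjusted p = 0.0984. Fewer arrays entered that fit; for the other settings the cause was not tested.

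Deviations of same-numbered pools from their group means correlated at 0.062, -0.035 and 0.0056, and not every pool correlated best with its own number. With 3 arrays a group, these correlations cannot decide whether the replicate numbers pair the arrays. Xist was high in both pools numbered 1 and in no other (10.50 in dKO 1, 9.10 in control 1). A replicate block gave 4 higher member probe sets, 656 higher and 596 lower probe sets in all, 1 higher T cell marker, 0 for exocytosis, 5 lower granulocyte and monocyte markers, 0 lower inhibitors or targets and 3 lower proteases.

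Leaving out each pool in turn gave 382 to 861 higher and 279 to 611 lower probe sets, 0 to 2 higher for exocytosis, 1 to 4 for maturation, 0 to 3 higher and 0 to 2 lower inhibitors or targets, 3 to 5 higher drivers, 2 to 3 higher and 0 to 1 lower other proteases, 2 to 7 natural killer, 0 to 1 T cell and 2 to 5 mast cell markers higher, and 1 to 3 plasmacytoid and 1 to 3 granulocyte markers lower. Differences near 0 changed sign: Ctsc ran between -0.41 and 0.0815, Gzmf between -0.15 and 0.28, Gzmm between -0.13 and 0.19 and Ptprc between -0.14 and 0.23.

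Medians of the reported lists that turned sign were those of inhibitors and targets (0.09 in the report, -0.27 with probe sets above the median mean, -0.098 without control 3, -0.0013 without dKO 1, -0.0016 without dKO 2) and of other leukocyte proteases (0.23, and -1.47 with either dim filter, which left 7 genes).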
